A study of Mus musculus with 8 samples.

Results

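The sodium-potassium pump (Na,K-ATPase) subunits and their FXYD regulators were followed in 7 genes of the deposited table of 23284 genes, chosen by gene symbol: the beta subunit genes Atp1b1, Atp1b2 and Atp1b3, the alpha subunit gene Atp1a4, and the regulator genes Fxyd1, Fxyd6 and Fxyd7. All 7 were in the table and all passed the filter on low counts. RNA came from whole brains of wild-type C57BL/6J mice, from cells held on magnetic beads by an antibody to GLAST, the glutamate transporter of radial glia and astrocytes. There were 4 libraries at postnatal day 0 (P0), labelled radial glia, and 4 at postnatal day 8 (P8), labelled astrocyte precursors. They are named here by age and replicate number, and no library of unsorted or GLAST-negative cells was analysed here.

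The pump exchanges sodium inside the cell for potassium outside at the cost of ATP. Its alpha subunit carries the ATP and ion sites, its beta subunit is a glycoprotein needed for folding and delivery to the membrane, and small FXYD proteins with a single membrane span bind the complex and tune its affinity for ions. In the brain, pumps of astrocytes take up potassium released by active neurons and maintain the sodium gradient that drives glutamate uptake.

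Total counts ranged from 30708719 in P0 2 to 94308235 in P8 1. Slc1a3, which encodes GLAST, averaged 295 ± 46.8 CPM (counts scaled to a common library total) in the P0 libraries against 4133 ± 603 CPM in the P8 libraries (SD, n = 4). Summed CPM of 8 astrocyte markers was 331 to 563 at P0 and 9714 to 11131 at P8, and all 8 were higher at P8. Summed CPM of 8 choroid plexus markers was 27264 to 65295 at P0 and 202 to 3129 at P8, and all 8 were lower, so the P0 libraries carried abundant transcripts of another cell type. The label of radial glia was checked by Slc1a3 alone. Of the other lists, 5 of 6 tested myelin genes and 6 of 7 microglia genes were higher at P8, 6 of 7 endothelial and 4 of 4 erythroid genes were lower, 2 of 4 oligodendrocyte precursor genes were higher and 1 lower, and 2 of 5 ependymal genes were higher and 3 lower. In sorted bulk RNA, fewer cells of a type and less RNA per cell cannot be told apart.

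The FXYD genes share a coding signature, shown here because it is what places the 3 regulators in a single family. Each line is 45 bases of coding sequence from the GENCODE M1 transcripts, 5′ to 3′, and the capitals mark the 15 bases that encode the family's signature, a proline followed by the FXYD residues.
Fxyd1: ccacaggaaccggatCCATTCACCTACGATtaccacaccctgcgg
Fxyd6: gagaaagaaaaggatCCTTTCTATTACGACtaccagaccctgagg
Fxyd7: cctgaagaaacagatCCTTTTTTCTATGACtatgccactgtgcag
The signature occurred once in frame in each coding sequence. It began at base 82 of the coding sequence of Fxyd1 and of Fxyd6 and at base 49 of that of Fxyd7. Over the 45 bases, Fxyd1 and Fxyd6 were identical at 31, Fxyd1 and Fxyd7 at 28, and Fxyd6 and Fxyd7 at 27.

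Between the P0 and P8 libraries the mix of beta subunit transcripts moved to Atp1b2. Among Fxyd1, Fxyd6 and Fxyd7 the mix moved from Fxyd1 to Fxyd6. Marker levels of several cell types also differed between the ages, and their part in these mixes was not tested. Atp1b2 and Fxyd6 were higher at P8, Atp1b3 and Fxyd1 were lower, and Atp1b1, Fxyd7 and Atp1a4 did not pass the test. The test was edgeR's quasi-likelihood test with Benjamini-Hochberg adjustment over the 16808 genes tested, with calls at an adjusted p under 0.05. It called 49.5% of all genes (24.5% higher and 25% lower at P8), so 4 called genes of 7 is a share near the background. The libraries of the ages did not overlap in CPM for the same 4 genes, against 47.2% of all genes. Changes of at least 4-fold were called for 16.1% of genes, and Atp1b2 and Fxyd6 were both beyond that size. The labels do not say whether replicates came from separate animals, so the p-values speak only for the scatter of these libraries, which may be technical.

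**Figure D1:**
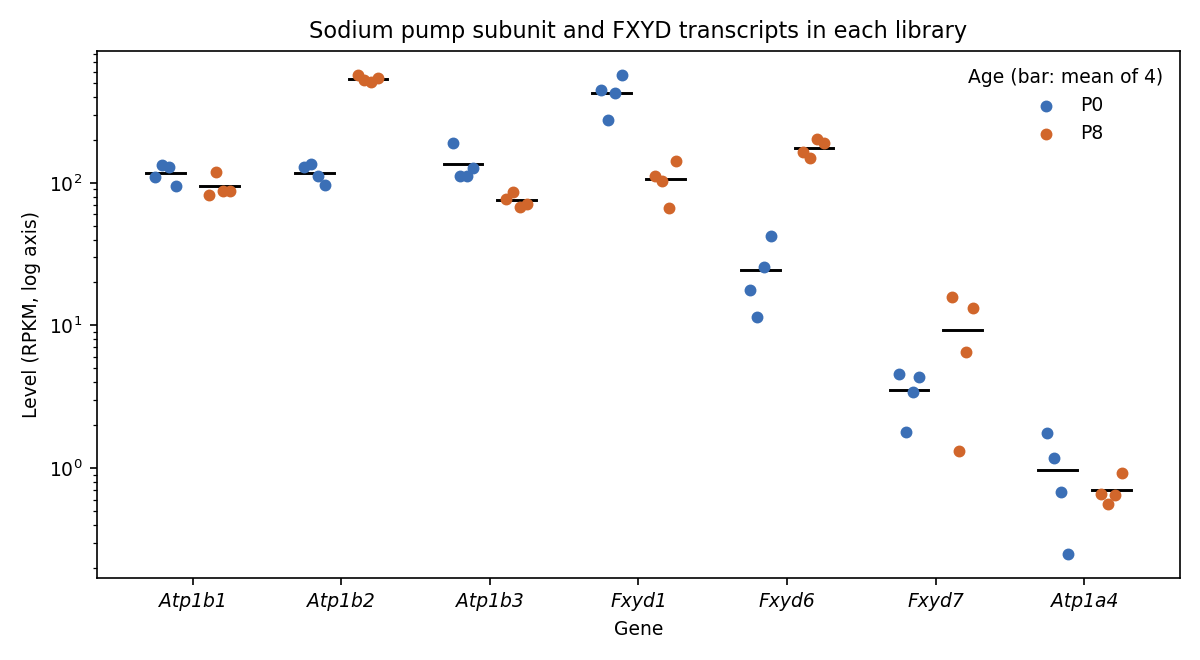
Level of each of the 7 genes (RPKM, log axis) in the 4 P0 libraries (blue) and the 4 P8 libraries (orange), with the mean of each age as a bar. Atp1b2 and Fxyd6 lie higher at P8 in all 4 libraries, Fxyd1 and Atp1b3 lie lower in all 4, and the ages overlap for Atp1b1, Fxyd7 and Atp1a4.

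Among the beta subunits, Atp1b2 encodes beta 2, known as the adhesion molecule on glia (AMOG) and a subunit of astrocyte pumps. Per gene length, Atp1b2 stood at 128, 135, 112 and 96.5 RPKM (CPM per kilobase of gene) in P0 1 to P0 4, against 572, 529, 506 and 545 RPKM in the P8 libraries in the same order. The ages were far apart, and the P8 libraries lay close together. The mean rose from 118 ± 17.1 to 538 ± 27.7 RPKM (SD, n = 4). The edgeR log2 fold change was 2.27 with a standard error of 0.16 (adjusted p = 5.76e-06), a 4.83-fold rise. By RPKM, Atp1b2 ranked between 353 and 774 among the genes of a P0 library and between 97 and 149 at P8. The 8 astrocyte markers moved in the same direction in the same libraries, with none at 0 in any library, and their part in the rise was not tested. Atp1b2 spans chr11:69413238-69419444 (minus strand, build NCBIM37).

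Atp1b3 encodes beta 3, a subunit found in many tissues. It stood at 191, 112, 111 and 128 RPKM in P0 1 to P0 4, against 77.4, 86.7, 67.2 and 71.4 RPKM in the P8 libraries in the same order. All P0 libraries were above all P8 libraries, and P0 1 was the highest of the 8. The mean fell from 135 ± 37.9 to 75.6 ± 8.45 RPKM (edgeR log2 fold change -0.76, standard error 0.21, adjusted p = 0.0128), a 1.69-fold fall. P0 1 also had the highest summed CPM of 8 pericyte and meningeal markers, at 10673 against 5650 to 8276 in the other P0 libraries and 448 to 1115 at P8. The other P0 libraries did not keep this order: P0 4 had the fewest of these markers (5650 CPM) and the second-highest Atp1b3, and P0 2 had more markers (8276 CPM) at 112 RPKM of Atp1b3. Of the 8 pericyte and meningeal markers 6 were lower at P8 and none was at 0 in any library. The part of these markers in the fall of Atp1b3 was not tested. Without P0 1 the log2 fold change of Atp1b3 was -0.54 (edgeR adjusted p = 0.0169). Atp1b3 spans chr9:96233099-96264766 (minus strand).

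Atp1b1 encodes beta 1, a widely expressed beta subunit. Its level was 109, 133, 129 and 94.6 RPKM in P0 1 to P0 4, against 82.5, 118, 87.7 and 88.0 RPKM in the P8 libraries in the same order. The ages overlapped through P8 2, which was above P0 1 and P0 4. The means were 116 ± 17.9 and 94.1 ± 16.3 RPKM (edgeR log2 fold change -0.22, standard error 0.17, adjusted p = 0.318). The 95% confidence interval of the log2 fold change was -0.60 to 0.17. At this spread neither a fall nor a small rise within that interval could be told from no change. Atp1b1 spans chr1:166367398-166388486 (minus strand).

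As shares of the summed RPKM of the 3 beta genes, no subunit dominated at P0. Atp1b2 made up 29.9%, 35.5%, 31.8% and 30.3% of the sum in P0 1 to P0 4, against 78.2%, 72.1%, 76.6% and 77.4% in the P8 libraries in the same order. Its mean share rose from 31.9% ± 2.55 to 76.04% ± 2.73 (SD, n = 4), with no overlap between ages. Atp1b1 fell from 31.7% ± 5.12 to 13.3% ± 2.06, and Atp1b3 from 36.4% ± 7.12 to 10.7% ± 0.787, also without overlap. Each of these differences had p = 0.0286 in a two-sided exact permutation test over libraries, the smallest that 4 against 4 can give, and an adjusted p = 0.0343 over the 6 beta and FXYD shares tested. Shares of a sum are not independent of each other, since a rise of one lowers the rest. Levels of Atp1b1 that overlapped between ages thus stood beside a share that did not. The summed RPKM of the 3 genes was 319 to 428 at P0 and 661 to 734 at P8. The ratio of Atp1b2 to Atp1b1 RPKM was 0.867 to 1.17 at P0 and 4.47 to 6.93 at P8, with the lowest P8 value in P8 2. Atp1b4, the remaining beta gene of the table, had a count of 0 in all 8 libraries, where 3 counts correspond to between 0.0318 and 0.0977 CPM (counting error only).

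**Figure D2:**
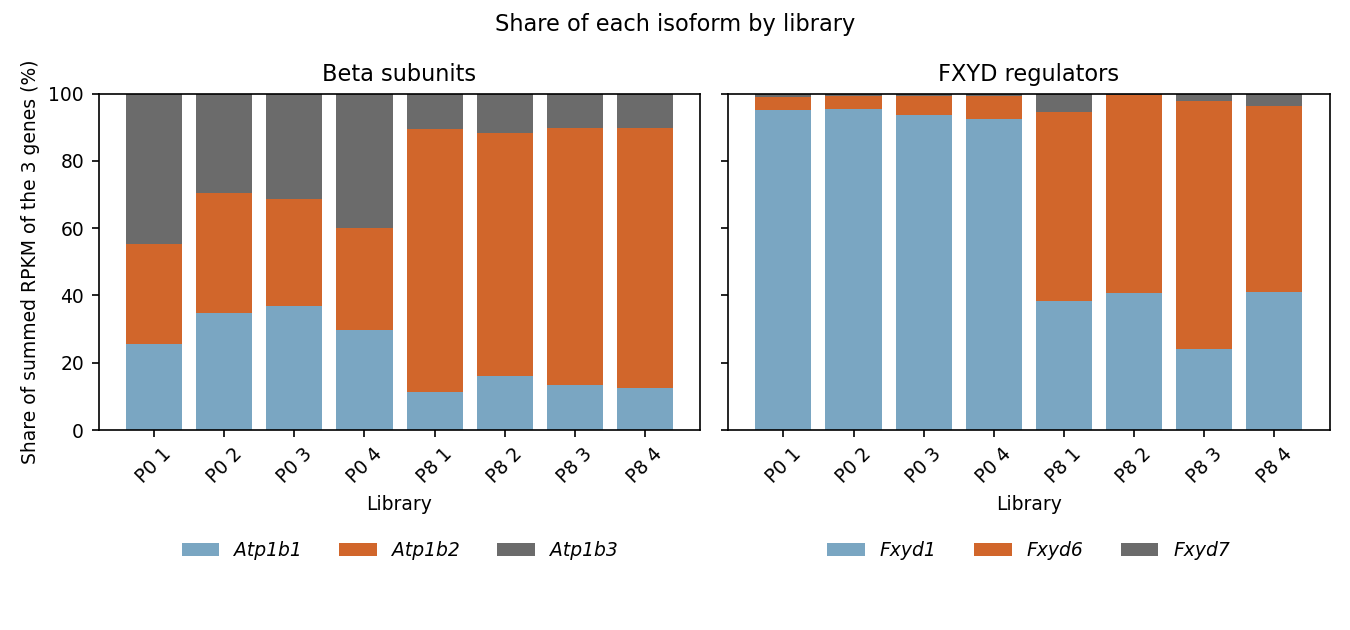
Share (%) of each gene in the summed RPKM of the 3 beta subunit genes (left) and of Fxyd1, Fxyd6 and Fxyd7 (right), with a bar for each of the 8 libraries. Atp1b2 holds 29.9% to 35.5% of the beta sum at P0 and 72.1% to 78.2% at P8, and Fxyd6 holds 3.79% to 6.89% of the FXYD sum at P0 and 55.1% to 73.4% at P8.

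Among the regulators, Fxyd1 encodes phospholemman, a pump regulator that protein kinases phosphorylate and that is known from muscle and the choroid plexus. It stood at 444, 273, 428 and 568 RPKM in P0 1 to P0 4, against 111, 103, 67.0 and 142 RPKM in the P8 libraries in the same order. Every P0 library was above every P8 library. The mean fell from 428 ± 121 to 106 ± 30.8 RPKM (edgeR log2 fold change -1.94, standard error 0.28, adjusted p = 0.000343), a 3.83-fold fall. At P0 Fxyd1 ranked between 95 and 149 by RPKM among the genes of a library, and at P8 between 513 and 1082.

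Within each age, the libraries with the most and the least Fxyd1 had the highest and the lowest summed choroid plexus markers. That sum was mostly Ttr, at 26909, 22940, 39405 and 61703 CPM in P0 1 to P0 4. Every other marker of the list was lowest in P0 1 among the P0 libraries. Clic6, Kl and Kcne2 were highest in P0 2, the library with the least Fxyd1, and the remaining markers in P0 3 or P0 4. Among the P8 libraries each marker was highest in P8 4 and lowest in P8 3. At P0 the highest Fxyd1 (404 CPM) and the highest summed choroid plexus markers (65295 CPM) were both in P0 4, and the lowest of both (195 and 27264 CPM) in P0 2. At P8 the highest of both were in P8 4 (101 and 3129 CPM) and the lowest of both in P8 3 (47.7 and 202 CPM). The middle libraries had the reverse order. P0 1 had more Fxyd1 than P0 3 (316 against 305 CPM) with a lower marker sum (29212 against 43774 CPM). P8 1 had more Fxyd1 than P8 2 (79.2 against 73.1 CPM) with a slightly lower sum (948 against 959 CPM). The fold differences were unequal: from P0 2 to P8 4, the nearest libraries of the ages in Fxyd1, the marker sum went from 27264 to 3129 CPM while Fxyd1 went from 195 to 101 CPM. None of the 8 choroid plexus markers was at 0 in any library, and their part in the fall of Fxyd1 was not tested. Fxyd1 spans chr7:31836700-31840675 (minus strand).

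Fxyd6 encodes phosphohippolin, a regulator abundant in brain. It stood at 17.7, 11.5, 25.6 and 42.3 RPKM in P0 1 to P0 4, against 163, 148, 203 and 191 RPKM in the P8 libraries in the same order. The lowest P8 library was above the highest P0 library, and P0 was the more variable age. The mean rose from 24.3 ± 13.3 to 176 ± 25.2 RPKM, the largest estimated change of the 7 genes (edgeR log2 fold change 2.93, standard error 0.36, adjusted p = 0.000133), a 7.65-fold rise. Its rank by RPKM moved from between 1930 and 6435 at P0 to between 305 and 490 at P8. Fxyd6 and the summed neuronal markers were both highest at P0 in P0 4 (75.8 and 45.6 CPM) and both lowest at P8 in P8 2 (265 and 61.1 CPM). At P0 the single markers were divided. Camk2a, Snap25 and Syt1 were highest in P0 2, the library with the least Fxyd6 (20.6 CPM), and Rbfox3 in P0 3. The others were highest in P0 4, where Stmn2 alone stood at 20.4 CPM. The marker sum was lowest in P0 1 (23.2 CPM). In the other P8 libraries Fxyd6 was 292 to 364 CPM and the marker sum 299 to 466 CPM. Fxyd6 was highest in P8 3 and the marker sum in P8 1. Of the single markers, Rbfox3, Slc17a6 and Gad1 were highest in P8 3, and the others in P8 1 or P8 4. The astrocyte and neuronal markers rose in the same libraries as Fxyd6, and their part in its rise was not tested. Fxyd6 spans chr9:45178268-45204241 (plus strand), and Fxyd2 begins 3715 bases beyond its end on the same strand.

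Fxyd7 encodes a regulator known from brain, mainly from neurons. Its level was low, at 4.54, 1.78, 3.43 and 4.32 RPKM in P0 1 to P0 4, against 15.8, 1.32, 6.52 and 13.3 RPKM in the P8 libraries in the same order. P8 2 was the lowest of all 8 libraries, and the other P8 libraries were above all of P0. The means were 3.52 ± 1.26 and 9.24 ± 6.58 RPKM (edgeR log2 fold change 1.46, standard error 0.63, adjusted p = 0.0823), and the difference did not pass the test. The call turned on P8 2 and on the tool. Without P8 2 the log2 fold change was 1.81 (edgeR adjusted p = 0.00691), and DESeq2 on all libraries gave 1.45 (adjusted p = 0.0353). Over the alternatives tried, the adjusted p ran from 0.00691 to 0.232.

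P8 2 was also the P8 library lowest in neuronal markers, in myelin markers (628 CPM against 2145 to 2452 CPM) and in oligodendrocyte precursor markers (445 CPM against 764 to 1380 CPM), and the highest in microglia markers (3974 CPM against 1166 to 2941 CPM). Summed CPM of 8 neuronal markers was 466, 61.1, 299 and 449 in P8 1, P8 2, P8 3 and P8 4, and Fxyd7 stood at 10.7, 0.896, 4.42 and 9.01 CPM in the same order. The P8 libraries thus had the same order by Fxyd7 and by the neuronal marker sum. Of the single markers, only Camk2a and Syt1 kept this order. The others were highest in P8 3, as Rbfox3 was, or in P8 4, as Stmn2 was. P8 2 was the lowest P8 library for every marker of the list. At P0 the marker sum was 23.2 to 45.6 CPM with Fxyd7 at 1.20 to 3.08 CPM, and P0 1 was lowest in the markers and highest in Fxyd7. All 8 neuronal markers were higher at P8, and none was at 0 in any library. The part of these lists in the levels of Fxyd7 was not tested. Fxyd7 spans chr7:31827536-31836481 (minus strand) and lies between Fxyd5 and Fxyd1, with gaps of 35 and 218 bases and all 3 genes on the same strand. No exon of the 7 genes overlaps an exon of another protein-coding gene in this annotation.

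**Figure D3:**
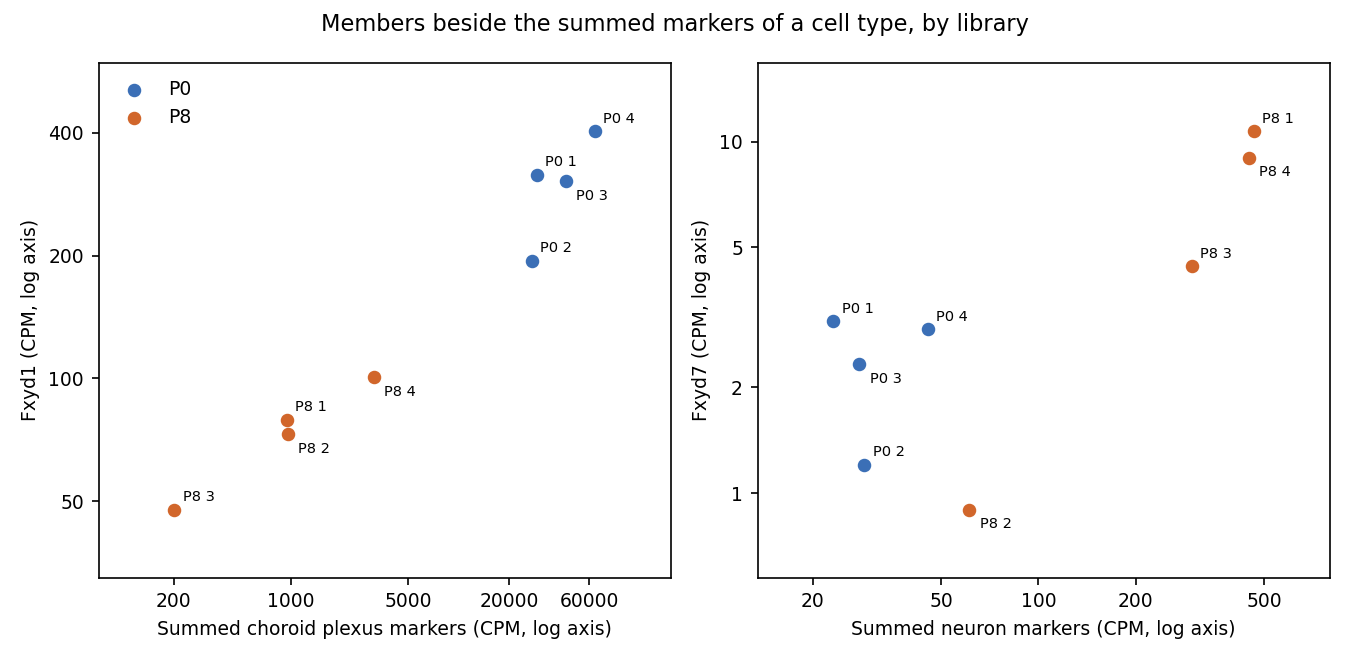
Fxyd1 against the summed choroid plexus markers (left) and Fxyd7 against the summed neuronal markers (right), in CPM on log axes, with 1 point per library. P8 4 and P8 3 are the highest and lowest P8 libraries on both axes at left, and P8 2 is the lowest P8 library on both axes at right. The choroid plexus sum is mostly Ttr.

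By share, the larger of Fxyd1 and Fxyd6 was Fxyd1 at P0 and Fxyd6 at P8. Fxyd1 made up 95.2%, 95.4%, 93.6% and 92.4% of the summed RPKM of Fxyd1, Fxyd6 and Fxyd7 in P0 1 to P0 4, against 38.3%, 40.7%, 24.2% and 41.01% in the P8 libraries in the same order. Its mean share fell from 94.2% ± 1.41 to 36.1% ± 8.01 (SD, n = 4), without overlap. Fxyd6 rose from 5.07% ± 1.46 to 60.9% ± 8.51, and was the larger of the pair in every P8 library. Both differences had p = 0.0286 in the exact permutation test, the smallest that it can give, and an adjusted p = 0.0343 over the 6 shares. Fxyd1 and Fxyd6 made up nearly all of this sum in every library, so their differences are close to a single comparison. Fxyd7 stayed a minor part, at 0.762% ± 0.152 and 3.04% ± 2.1, and its ages overlapped (exact permutation p = 0.143, also when adjusted). Fxyd1 exceeded Fxyd6 in RPKM by 13.4 to 25.1 times at P0, and the ratio of Fxyd6 to Fxyd1 was 1.34 to 3.04 at P8. The summed RPKM of the 3 genes was 287 to 614 at P0 and 252 to 346 at P8, so the total did not separate the ages as the shares did. On CPM, which is not corrected for gene length, the mean share of Fxyd1 was 87.5% at P0 and 19.02% at P8.

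Counting every Fxyd gene in the table brought in Fxyd5, which encodes dysadherin, a regulator also linked to cell adhesion. Fxyd5 made up 9.17% to 26.02% of the whole family's RPKM at P0 and 1.20% to 3.76% at P8. Its level fell from 114 ± 81.0 to 8.59 ± 3.81 CPM (edgeR log2 fold change -3.66, standard error 0.54, adjusted p = 0.000436). P0 1 was its highest library, at 165 RPKM against 35.4 to 85.04 in the other P0 libraries and 3.62 to 10.1 at P8, and P0 1 was also the highest in pericyte and meningeal markers. The remaining P0 libraries had the reverse order by the marker sum. Fxyd5 was lowest in P0 2 and highest in P0 4. The sum fell from 8276 CPM in P0 2 to 5650 CPM in P0 4. Igf2, Col1a1 and Col1a2, which made up most of the sum, fell likewise, as did Pdgfrb and Rgs5. Dcn rose with Fxyd5, at 166, 190 and 270 CPM in P0 2 to P0 4. Lum and Acta2 were highest in P0 4 of these libraries. At P8 the highest Fxyd5 was in P8 2 and the highest marker sum in P8 3. The part of these markers was not tested. With the whole family as denominator the mean share of Fxyd1 was 79.9% at P0 and 34.5% at P8, and that of Fxyd6 was 4.35% and 58.3%. Fxyd2, Fxyd3, Fxyd4 and Fxyd7 were minor in every library, the highest being Fxyd7 at 5.26% in P8 1.

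Atp1a4 encodes alpha 4, the catalytic subunit known from sperm, and its transcripts were scarce. It had 300, 125, 129 and 47 counts in P0 1 to P0 4, against 215, 137, 143 and 205 counts in the P8 libraries in the same order. That is 1.77, 1.17, 0.678 and 0.25 RPKM at P0 and 0.654, 0.559, 0.65 and 0.924 RPKM at P8, so the P0 libraries spanned the whole P8 range. The edgeR log2 fold change was -0.40 with a standard error of 0.51 (adjusted p = 0.539) and a 95% confidence interval of -1.53 to 0.74. The sign rested on P0 1, and the estimate without it was 0.10 (edgeR adjusted p = 0.873). The gene spans chr1:174153644-174188545 (minus strand).

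Ordered by level per gene length, Fxyd1 was the highest of the 7 at P0, and the ranges of Atp1b1, Atp1b2 and Atp1b3 overlapped each other below it. Fxyd6, Fxyd7 and Atp1a4 followed, without overlap between neighbours, although the lowest Fxyd7 (1.78 RPKM) and the highest Atp1a4 (1.77 RPKM) all but touched. At P8 Atp1b2 was the highest and Fxyd6 was next, its lowest library (148 RPKM) just above the highest of Fxyd1 (142 RPKM). The ranges of Fxyd1, Atp1b1 and Atp1b3 overlapped each other at P8, and Fxyd7 and Atp1a4 were again the lowest.

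Promoter sequences are shown for the 2 regulators that changed in opposite directions and, beside them, for Atp1b1, which did not pass the test. Each line holds the 250 bases before the RefSeq gene start (GRCm38.p6), 5′ to 3′ on the gene's strand, and the capitals mark every CG dinucleotide, the base pair step at which mammalian DNA is methylated. Fxyd1 is chr7:31054854-31055103 on the minus strand, Fxyd6 is chr9:45369935-45370184 on the plus strand and Atp1b1 is chr1:164458356-164458605 on the minus strand.
Fxyd1: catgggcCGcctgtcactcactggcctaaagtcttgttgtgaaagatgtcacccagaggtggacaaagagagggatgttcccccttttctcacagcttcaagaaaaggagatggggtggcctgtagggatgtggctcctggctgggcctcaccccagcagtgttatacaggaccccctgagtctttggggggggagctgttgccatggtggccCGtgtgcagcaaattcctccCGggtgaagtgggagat
Fxyd6: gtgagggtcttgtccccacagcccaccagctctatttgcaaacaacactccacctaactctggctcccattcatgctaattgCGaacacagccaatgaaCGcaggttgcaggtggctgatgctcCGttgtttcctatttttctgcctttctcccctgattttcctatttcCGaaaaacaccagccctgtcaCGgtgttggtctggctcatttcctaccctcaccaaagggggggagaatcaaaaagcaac
Atp1b1: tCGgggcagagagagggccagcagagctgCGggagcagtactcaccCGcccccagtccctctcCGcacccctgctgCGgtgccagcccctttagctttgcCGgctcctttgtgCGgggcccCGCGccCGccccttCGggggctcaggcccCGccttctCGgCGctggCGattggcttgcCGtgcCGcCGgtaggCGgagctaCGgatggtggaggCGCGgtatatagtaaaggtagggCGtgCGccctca
The Fxyd1 window held 3 CG and the Fxyd6 window 5, against a median of 6 over 32851 RefSeq promoter windows of the same length. The Atp1b1 window held 24, a count reached by 12% of the windows, and the 2 windows of Atp1b3 held 24 and 35. Atp1a4 had 5. Sequences were found for 5 of the 7 genes, and Atp1b2 and Fxyd7 had none. These counts describe the windows, and methylation was not measured.

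Relatives of the pump were counted by families of symbols: the remaining pump, FXYD and NKAIN genes and the proton pump genes Atp4a, Atp4b and Atp12a. Of 15 such genes 11 were tested, of which 7 were higher and 2 lower at P8, beside 24.5% and 25% of all genes, with a median log2 fold change of 1.30 against 0.044 for all genes tested. The NKAIN genes encode membrane proteins named for their interaction with the pump. Nkain1 rose from 13.3 ± 5.69 to 61.7 ± 21.9 CPM (edgeR log2 fold change 2.29, adjusted p = 0.000655). P8 2 was its lowest P8 library, at 30.3 CPM against 65.6 to 81.3 CPM, as it was for the neuronal and myelin markers, and their part was not tested. Nkain2 rose from 4.63 ± 2.6 to 17.2 ± 4.34 CPM and Nkain4 from 25.4 ± 11.5 to 86.5 ± 12.5 CPM (edgeR adjusted p = 0.00164 and 0.000726). As for Nkain1, P8 2 was the lowest P8 library of Nkain2 (11.3 against 16.9 to 21.3 CPM), while Nkain4 was lowest in P8 3 (70.4 CPM). Fxyd3 was called higher at a low level, from 1.07 ± 0.388 to 2.40 ± 0.503 CPM (edgeR adjusted p = 0.0138), and Fxyd2 stood at 0.84 ± 0.561 and 1.95 ± 0.643 CPM and did not pass (edgeR adjusted p = 0.0848).

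**Figure D4:**
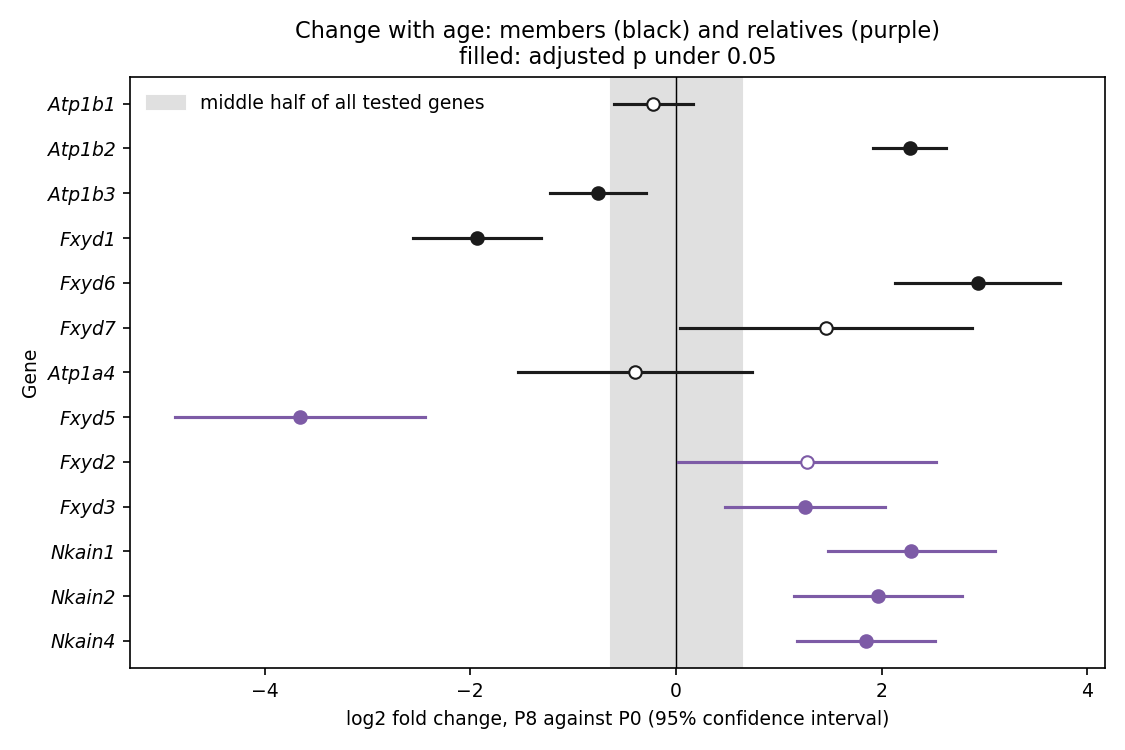
Log2 fold change of P8 against P0 with its 95% confidence interval for the 7 genes (black) and for 6 relatives (purple), with filled points for an adjusted p under 0.05 and the interquartile range of all tested genes shaded (-0.63 to 0.64). Atp1b2 (2.27) and Fxyd6 (2.93) lie to the right of the shaded band and Fxyd1 (-1.94) and Fxyd5 (-3.66) to its left.

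The calcium pumps are P-type ATPases related to the sodium pump. Of 11 calcium pump genes and small regulators 10 were tested, of which 2 were higher and 5 lower, beside 24.5% and 25% of all genes, with a median log2 fold change of -0.76. Atp2b3, a plasma membrane calcium pump gene, fell from 451 ± 213 to 10.4 ± 9.01 CPM (edgeR log2 fold change -5.36, adjusted p = 9.04e-05), and its relative Atp2b2 from 178 ± 103 to 33.5 ± 8.40 CPM (edgeR adjusted p = 0.000578). Atp2c2, of the secretory pathway, and Atp2a1, of the sarcoplasmic reticulum, were at 4.12 ± 1.05 and 2.99 ± 1.13 CPM at P0 and fell to 0.275 ± 0.175 and 0.397 ± 0.0845 CPM. The choroid plexus markers fell in the same libraries, as did most endothelial, pericyte and meningeal, and erythroid markers. Atp2b3 and Atp2b2 were highest in P0 2 (740 and 328 CPM). Atp2c2 and Atp2a1 were highest in P0 1 (5.54 and 4.54 CPM), the library with the highest summed pericyte and meningeal markers (10673 CPM). Every choroid plexus marker but Ttr was lowest in P0 1 among the P0 libraries. The part of these lists was not tested.

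Channels and exchangers that move potassium or sodium beside the pump were taken from the Kcnj, Slc8a, Slc9a and Slc12a symbols, with 33 of 39 tested. Of these 13 were higher and 8 lower, beside 24.5% and 25% of all genes, with a median log2 fold change of 0.59. Kcnj10, the inward rectifier channel of astrocytes through which potassium is buffered, rose from 20.6 ± 6.11 to 699.7 ± 109 CPM (edgeR log2 fold change 5.17, adjusted p = 2.3e-06). Kcnj16, which forms channels with it, rose from 2.44 ± 0.776 to 71.4 ± 12.2 CPM, and Kcnj6, a channel opened by G proteins, from 0.437 ± 0.322 to 8.92 ± 3.55 CPM. The sodium-proton exchanger gene Slc9a2 fell from 47.6 ± 21.6 to 1.4 ± 0.27 CPM. Kcnj6 was lowest at P8 in P8 2 (4.04 against 8.76 to 12.2 CPM), as the neuronal markers were. Slc9a2 was highest in P0 1 (79.1 against 31.9 to 43.4 CPM in the other P0 libraries). The part of the cell type markers in these changes was not tested.

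The genes closest in pattern to each of the 7 were taken by the root mean square difference of log2 CPM, each gene centred on its mean over the 8 libraries, among tested genes with at least 10 CPM at an age. For Atp1b2 the nearest were Acss2 (0.09 log2 units) and Scd2 (0.11). For Fxyd6 they were Tubb2b (0.20), Kcnmb4 (0.21) and Spon1 (0.26), and for Fxyd1 they were Dpcd (0.26), Gm10804 (0.27) and Tpd52l1 (0.29). Atp1b3 was nearest to Mapk3 (0.11), Aldoa (0.12) and Anxa7 (0.13), and Atp1b1 to Atxn7l1, Etohd2 and Zfp217 (0.09 to 0.10). Among the genes compared, Fxyd7 had no close neighbour, with Begain at 0.43, Syt13 at 0.47 and Ablim3 at 0.48. Atp1a4 was as far from Tnxb (0.43) and Dgka (0.45). Fxyd7 (means of 2.39 and 6.26 CPM at P0 and P8) and Atp1a4 (3.37 and 2.43 CPM) were themselves below the limit of 10 CPM. Genes at their own level were thus left out, and their distances include the noise of low counts.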

How the data were processed

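Per the labels' protocols, GLAST-positive cells were isolated from dissociated whole brain, their RNA was purified by PicoPure, and TruSeq RNA v2 libraries, which do not mark strand, were sequenced. The submitters' processing notes name TopHat and mm9. The sources used here do not give the read counter, annotation or settings. The authors deposited whole-number counts per gene, CPM (each count divided by its library total) and RPKM (CPM divided by a gene length in kilobases, which is one fixed length for each gene). Recomputed CPM and RPKM matched the deposited values to a relative difference under 1e-11.

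Counts were tested with edgeR 4.0.16 (R 4.3.3) after filterByExpr (minimum count 10, minimum total 15), with TMM normalization, all 8 libraries and no covariate. The procedure was tested on simulated data in which few genes changed, as many up as down. In the real data 49.5% of genes were called, so the simulation does not speak for changes that widespread. The standard error of a log2 fold change was derived from its F statistic. Shares were computed from the deposited RPKM and compared by exact permutation over libraries. DESeq2 1.42.0, RLE size factors, no filter, a replicate block, CPM shares, whole-family denominators and leaving out libraries were tried. Within an age, no pair of libraries agreed within sampling noise (chi-square per degree of freedom at least 76.4). The members and gene lists were chosen with earlier results of these data known. Named genes are the 7 members, the called genes with the largest change in each list (up to 4, with further FXYD genes for the family shares, named after their values were seen), the nearest patterns and marker lists. Some genes of these lists are not reported here. Positions come from GENCODE M1 on NCBIM37, the assembly behind mm9, and promoters from RefSeq on GRCm38.p6.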

Additional observations from a re-analysis of the deposited data

Results flagged for a closer look

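Atp1b1 in P8 2 stood at 118 RPKM, apart from 82.5 to 88.0 RPKM in the other P8 libraries, with a gap to the nearest of them of 0.849 of the whole range, above Dixon's critical value. The share of Fxyd1 in the summed RPKM of Fxyd1, Fxyd6 and Fxyd7 was 24.2% in P8 3, apart from 38.3% to 41.01% in the other P8 libraries (0.841 of the range). These were 2 of 26 groups of 4 libraries examined, and chance flags about 1 in 20 groups. P8 3 was also the P8 library with the lowest summed choroid plexus markers, at 202 CPM.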

How the results depend on the processing

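Atp1b2, Atp1b3, Fxyd1 and Fxyd6 kept their direction and call under all 13 alternatives, at log2 fold changes of 2.19 to 2.34, -0.94 to -0.54, -2.11 to -1.75 and 2.70 to 3.35. Atp1b1 stayed uncalled, at -0.37 to -0.15. Fxyd7 was called with DESeq2 (1.45), without P8 2 and, in an alternative chosen after seeing the data, without P0 2 and P8 2 together (1.60), and ran from 1.04 to 1.81 when single libraries were left out. Atp1a4 ran from -0.72 to 0.10 and changed sign without P0 1. Called genes numbered 6979 to 9124, against 8321. With the replicate block 7355 genes were called and the 7 genes kept their side of the threshold, but same-numbered libraries did not deviate together (correlations -0.13 to 0.06), so the numbers were not taken to pair them. For the shares, the paired exact sign-flip permutation test gave its smallest possible p = 0.125 for all but Fxyd7, and the differences stand as in the report (Atp1b1 -18.4, Atp1b2 44.2, Atp1b3 -25.8, Fxyd1 -58.1, Fxyd6 55.8 percentage points). Leaving out single libraries gave -20.5 to -16.7, 43.5 to 45.5, -28.0 to -23.0, -59.7 to -54.1 and 51.6 to 57.7 points. Without P0 2 and P8 2 together, where an exact permutation p cannot go below 0.1, they were -18.3, 46.7, -28.4, -59.2 and 56.2 points. The Fxyd7 share difference ran from 1.48 to 3.12 points when single libraries were left out, and passed only without P8 2. Gene length bears on the FXYD shares: on CPM the differences were -68.5 points for Fxyd1 and 67.6 for Fxyd6. Atp1a4 and Fxyd7, with as few as 47 and 37 counts in a library, are the least precise of the 7.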
